A study of Mus musculus with 6 samples.

Results

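Of 36 listed genes for hepatocyte transporters of bile acids, drugs, nucleosides and small peptides, 29 were measured and are described here, out of 12393 genes in all. The members were chosen by gene symbol, and each was read at its brightest probe set, a group of short array sequences for one transcript, by the mean over the 6 arrays. Slco2b1, Slco4a1, Slc22a3, Slc28a2, Slc51b, Abcc4 and Atp8b1 had no probe set with that symbol alone and were not analysed here. The arrays held RNA from primary hepatocytes of a mixed B6/CBA mouse strain, untreated and harvested after 24 h on collagen-coated plates. The compared groups were 3 arrays of wild-type cells and 3 arrays of cells from Alb/AEG-1 mice, which overexpress in their hepatocytes AEG-1, the product of the gene Mtdh, known as astrocyte elevated gene 1. In that line the albumin promoter, active mainly in hepatocytes, drives the transgene. Neither the age and sex of the mice nor the number of animals behind each array was used here.

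Hepatocytes are polarised between blood and bile. Carriers on the sinusoidal (basolateral) membrane take up bile acids, hormones and drugs from blood, and ATP-driven pumps on the canalicular (apical) membrane export bile acids, phospholipid and conjugates into bile. A further set of basolateral pumps returns bile acids and conjugates to blood, a route known to matter when canalicular export is impaired. Nuclear receptors that sense bile acids, lipids and foreign compounds are known to control many of these genes.

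All values are log2 expression from RMA, so a difference of 1 is a doubling, and every difference is transgenic minus wild type. The array medians lay between 5.61 and 5.64, and values under them are nearer to background. The probe set that represents Mtdh was at 10.64 ± 0.21 in transgenic and 8.72 ± 0.07 in wild-type cells (SD, n = 3), while the other 5 Mtdh probe sets gave differences from -0.27 to 0.24. Of 13 measured hepatocyte markers 12 did not pass the threshold, among them Alb at 14.70 and 14.69, and Hpd fell by 0.20. The mean level of each marker list stood slightly higher on transgenic arrays for Kupffer cells (6.40 to 6.45 against 6.18 to 6.29), sinusoidal endothelium (5.97 to 6.09 against 5.81 to 5.93), cholangiocytes (4.80 to 4.84 against 4.62 to 4.66) and stellate cells (5.46 to 5.55 against 5.34 to 5.43, with 0 of 12 markers past the threshold). Of 11 cholangiocyte markers 10 did not pass, and without Epcam, left out after its value was seen, the ranges overlapped (4.67 to 4.71 against 4.63 to 4.68). The ranges of the T, NK and B cell list overlapped. In such bulk samples fewer cells of a type and less RNA per cell cannot be told apart.

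Among the 29 transporters, 4 rose and 5 fell in transgenic hepatocytes, and 20 did not pass the threshold. The peptide carrier Slc15a2, the prostaglandin carrier Slco2a1, the organic anion carrier Slc22a7 and the nucleoside carrier Slc29a1 rose. The sinusoidal carrier Slco1a4, the lysosomal carrier Slc15a4, the canalicular genes Abcb4 and Slc47a1 and the basolateral pump gene Abcc3 fell. A gene counted as risen or fallen when limma's adjusted p over all genes was under 0.05. By the same rule 15.9% of all genes changed (6.83% higher and 9.05% lower), against 31.0% of the transporters. Among genes at or above the array median 23.6% changed, and 8 of the 18 transporters at such levels did. For 12 of the 29 transporters every transgenic value lay on one side of every wild-type value, as held for 34.5% of all genes. The median difference of the transporters was 0.02, against 0.01 over all genes, and the median size of a difference was 0.15 against 0.10.

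**Figure D1:**
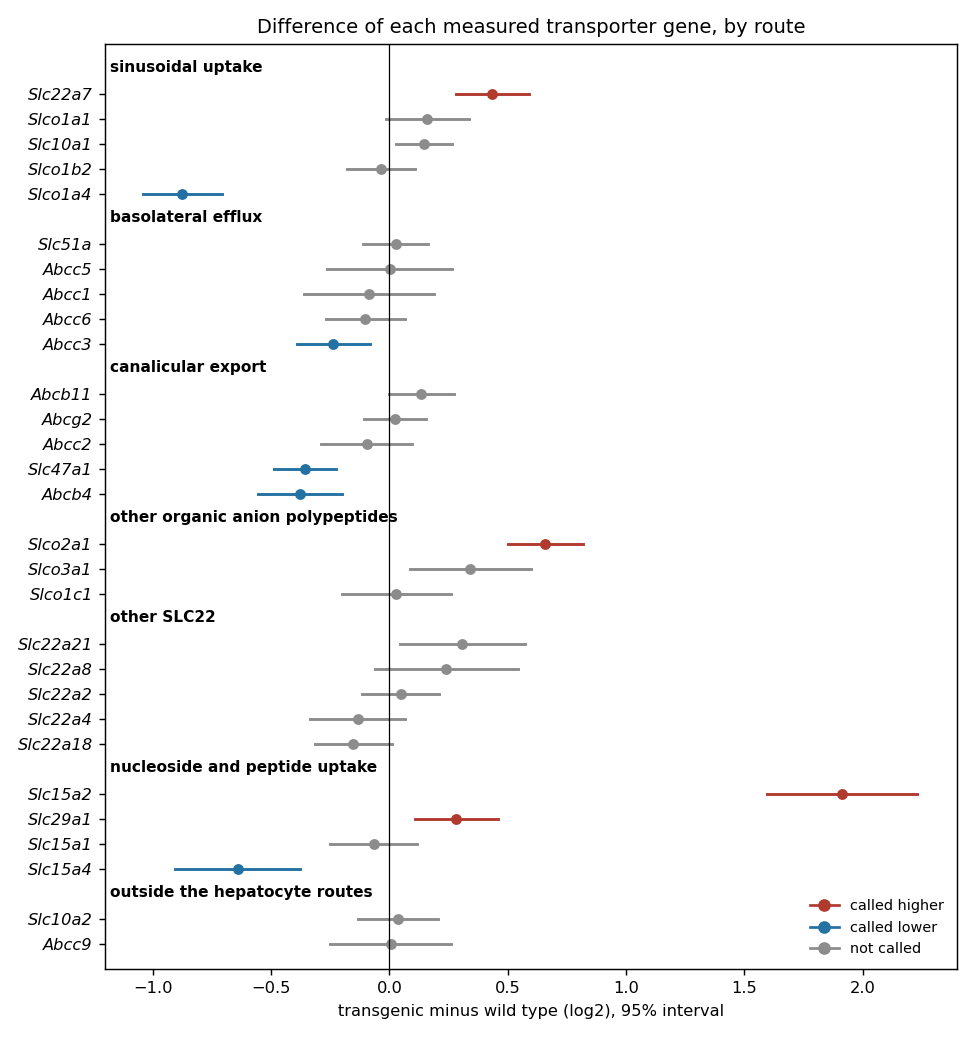
The plot gives the transgenic minus wild-type difference (log2, horizontal axis) of each of the 29 measured transporter genes with its 95% interval, grouped by route. Red marks the 4 genes that rose, blue the 5 that fell and grey the 20 that did not pass, and each main route of the hepatocyte holds grey genes beside the coloured ones.

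Sinusoidal uptake carriers went in both directions. Slco1a4, a multispecific organic anion carrier (Oatp1a4), fell 1.83-fold, while Slc22a7, the organic anion transporter Oat2, rose 1.35-fold. The other 3 measured genes of this route, which include the main bile acid carriers, did not pass the threshold. For Slco1a4 the transgenic arrays read 8.58, 8.68 and 8.69 and the wild-type arrays 9.55, 9.41 and 9.62. Every transgenic value was thus below every wild-type value, by a difference of -0.88 (SE 0.07, limma adjusted p = 0.000188). Slc22a7 was at 9.37, 9.49 and 9.29 on transgenic and at 8.91, 8.94 and 8.99 on wild-type arrays. All transgenic values were higher, by 0.44 (SE 0.07, limma adjusted p = 0.00387). The Slc22a7 value rests on 1 probe set of a type that can match several transcripts of a gene.

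Slc10a1 encodes NTCP, the sodium-dependent carrier for conjugated bile acids. Its values were 12.81, 12.84 and 12.78 on transgenic arrays and 12.65, 12.69 and 12.66 on wild-type arrays. The arrays did not overlap, but the difference of 0.15 (SE 0.05) missed the threshold (limma adjusted p = 0.101). Its 95% interval ran from 0.03 to 0.26, and the other Slc10a1 probe set gave 0.16. The call passed under 3 of 17 alternative settings, with adjusted p from 0.00301 to 0.237. Slco1b2, the main liver organic anion carrier (Oatp1b2), was at 12.25, 12.27 and 12.32 against 12.33, 12.22 and 12.39. The groups overlapped, and the difference was -0.04 with a 95% interval from -0.18 to 0.11. Slco1a1, a further multispecific carrier, gave 0.16 (95% interval from -0.01 to 0.33, limma adjusted p = 0.208), with overlapping arrays.

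Slco1a4 lies in a run of related genes on mouse chromosome 6, in the order Slco1c1, Slco1b2, Slco1a4, Slco1a1, Slco1a6 and Slco1a5 in RefSeq. Of these 6 genes Slco1a4 was the 1 that passed the threshold. The other 5 had differences from -0.07 to 0.16, with adjusted p from 0.208 to 0.892, and Slco1c1, Slco1a6 and Slco1a5 were under the array median. The within-array gap between Slco1a4 and Slco1a1 was -3.25 ± 0.04 on transgenic and -2.21 ± 0.06 on wild-type arrays (SD, n = 3). That gap moved by -1.04 (two-sided exact permutation p = 0.1, the smallest that 3 arrays against 3 allow), in a pair chosen after its values were seen. These genes are similar in sequence, and whether probes of one bind transcripts of another was not tested.

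The sequences upstream of Slco1a4 and Slco1a1 are shown because these related genes lie near each other on the same strand and only Slco1a4 passed the threshold. They come from RefSeq (build GRCm38.p6), which had promoter entries for 22 of the 29 measured transporters. Each runs 5′ to 3′ and ends at the gene's outermost annotated start, and capitals mark matches on either strand to AGGTCA or AGTTCA (hexamers bound by nuclear receptors), GTTAAT (an HNF1 core), TATAAA (the TATA box) or TGACNNNGC (an antioxidant response core), with no overlaps between matches. The Slco1a4 stretch is chr6:141856285-141856470 and the Slco1a1 stretch chr6:141946963-141947212, both on the minus strand.
Slco1a4: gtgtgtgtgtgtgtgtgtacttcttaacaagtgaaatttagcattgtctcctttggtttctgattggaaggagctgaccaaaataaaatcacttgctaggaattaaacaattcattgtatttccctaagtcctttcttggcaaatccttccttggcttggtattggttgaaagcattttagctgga
Slco1a1: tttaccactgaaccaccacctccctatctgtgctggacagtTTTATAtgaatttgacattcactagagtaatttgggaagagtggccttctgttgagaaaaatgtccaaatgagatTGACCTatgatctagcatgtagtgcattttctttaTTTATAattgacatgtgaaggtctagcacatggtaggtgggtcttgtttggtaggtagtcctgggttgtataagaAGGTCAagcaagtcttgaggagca
Matches were counted in the 250 bases before the start given by the promoter table, which for Slco1a4 lies 64 bases past the end of the printed stretch. Slco1a4 had 0 matches. Slco1a1 had 2 matches to AGGTCA, at 134 to 129 and at 24 to 19 bases before the start, and 2 to TATAAA. Over 32851 promoter windows of that length, 14% held AGGTCA, 11.8% AGTTCA, 6.43% GTTAAT, 12.4% TATAAA and 10.2% TGACNNNGC. Each motif was thus absent from most windows, and the share of windows with none of them was not counted. A match describes letters and does not show a bound site.

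**Figure D2:**
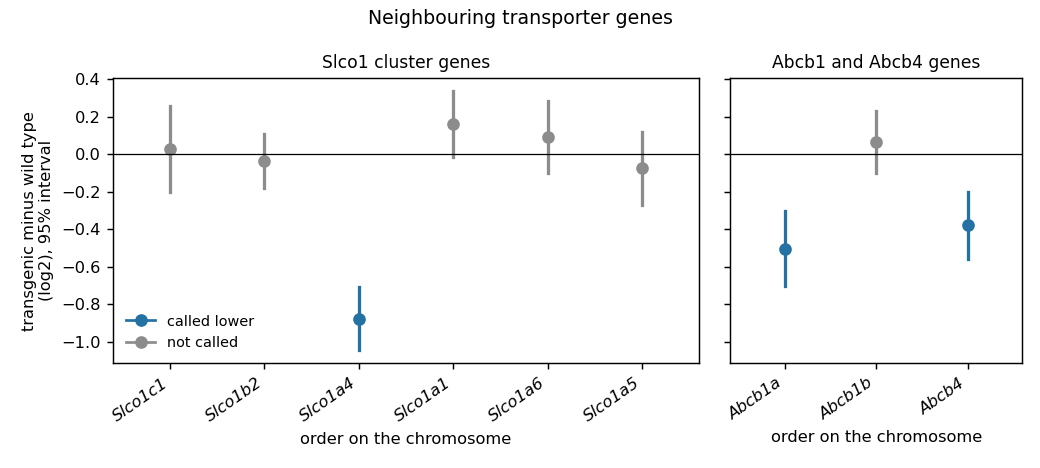
The plot gives the transgenic minus wild-type difference (log2, vertical axis, with 95% interval) of neighbouring transporter genes in their order on the chromosome. Slco1a4 stands at -0.88 between Slco1b2 at -0.04 and Slco1a1 at 0.16, and Abcb1a and Abcb4 fell while Abcb1b, between them, gave 0.07.

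Canalicular export genes divided into 2 that fell and 3 that did not pass. Abcb4, the flippase MDR2 that supplies phosphatidylcholine to bile, fell 1.30-fold, and Slc47a1, the proton-coupled exporter MATE1 for organic cations, fell 1.28-fold. Abcb11, the bile salt export pump BSEP, was not among the fallen, and neither were Abcc2 (MRP2, export of conjugates) or Abcg2 (BCRP, export of sulfated compounds and drugs). Abcb4 was at 10.09, 10.21 and 9.95 on transgenic arrays and at 10.52, 10.43 and 10.42 on wild-type arrays. All transgenic values were lower, by a difference of -0.38 (SE 0.08, limma adjusted p = 0.0138). Slc47a1 was at 10.28, 10.30 and 10.23 against 10.57, 10.68 and 10.63, again without overlap. Its difference was -0.36 (SE 0.06, limma adjusted p = 0.00469).

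Abcb11 read 11.46, 11.43 and 11.32 on transgenic and 11.30, 11.28 and 11.23 on wild-type arrays. Each transgenic value was higher, yet the difference of 0.13 (SE 0.06) did not pass (limma adjusted p = 0.183; 95% interval from -0.0038 to 0.27). Abcc2 was at 9.80, 9.63 and 9.69 against 9.68, 9.95 and 9.77, a difference of -0.10 with a 95% interval from -0.29 to 0.10. Abcg2 gave 0.02 (95% interval from -0.11 to 0.15). The arrays of Abcc2 and Abcg2 overlapped. The within-array gap between Abcb4 and Abcb11 moved by -0.51, from -0.81 ± 0.04 in wild-type to -1.32 ± 0.09 in transgenic cells (SD, n = 3). The gap between Slc47a1 and Abcg2 moved by -0.38. For both pairs the two-sided exact permutation p was 0.1, the smallest possible, and 0.1 after adjustment over the 4 pairs compared. The pairs were chosen after their values were seen, which that adjustment does not cover.

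Abcb4 follows Abcb1a and Abcb1b, which encode P-glycoproteins that export drugs, on mouse chromosome 5. Abcb1a fell by 0.50 (SE 0.09, limma adjusted p = 0.00687) at low signal, from 4.48 ± 0.16 to 3.98 ± 0.07. Abcb1b gave 0.07 (adjusted p = 0.608). The upstream stretches of Abcb4 and Abcb11 are shown for their pairing in bile formation, since phospholipid and bile salts leave the cell through these 2 proteins. Abcb4 is chr5:8893471-8893613 on the plus strand and Abcb11 chr2:69342617-69342866 on the minus strand, from the same table, with capitals as above.
Abcb4: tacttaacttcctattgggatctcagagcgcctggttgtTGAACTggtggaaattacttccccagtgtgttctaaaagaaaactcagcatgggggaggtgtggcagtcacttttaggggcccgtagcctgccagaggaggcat
Abcb11: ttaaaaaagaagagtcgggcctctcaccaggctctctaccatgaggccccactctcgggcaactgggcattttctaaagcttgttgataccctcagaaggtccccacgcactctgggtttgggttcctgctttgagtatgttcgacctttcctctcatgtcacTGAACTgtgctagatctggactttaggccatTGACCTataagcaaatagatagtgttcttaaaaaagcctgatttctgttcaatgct
Positions are again counted back from the start in the promoter table, which for Abcb4 lies 107 bases past the end of the printed stretch. In the 250 bases before each start, Abcb4 held 1 match to AGTTCA, at 211 to 206. Abcb11 held 1 match to AGGTCA, at 56 to 51, and 1 to AGTTCA, at 87 to 82.

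Basolateral efflux genes had a median size of difference of 0.08, against 0.16 for uptake and 0.13 for canalicular export. The routes differ in signal, with 3 of 5 basolateral genes at or above the array median and 5 of 5 in each other route. Differences near background are compressed, so these sizes are not directly comparable. Abcc3, the pump MRP3 that returns conjugates and bile acids to blood, fell 1.18-fold at the edge of the threshold, and the other 4 measured genes did not pass. Abcc3 was at 10.17, 10.16 and 9.99 on transgenic and at 10.35, 10.38 and 10.30 on wild-type arrays. The arrays did not overlap, with a difference of -0.24 (SE 0.07, limma adjusted p = 0.04998, just under the threshold). This call was lost under 13 of 17 alternative settings, including each of the 6 that leave out an array, where the adjusted p lay between 0.0771 and 0.137. Abcc6 (MRP6, an ATP release factor) gave -0.10 and Abcc5 (MRP5, a nucleotide pump) gave 0.00. Abcc1 (MRP1, a conjugate pump) gave -0.08 and Slc51a (the alpha subunit of the bile acid exporter OST) gave 0.03, both under the array median. The adjusted p of these 4 ranged from 0.402 to 0.997, and their arrays overlapped.

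Set side by side, sinusoidal uptake had 1 risen and 1 fallen of 5 and canalicular export 0 risen and 2 fallen of 5. Basolateral efflux had 0 risen and 1 fallen of 5, which was Abcc3 at the edge of the threshold. Over all genes 6.83% rose and 9.05% fell. All 5 uptake and all 5 canalicular genes were at or above the array median, as were 3 of the 5 basolateral genes. Among all genes at such levels 23.6% changed in either direction. The median difference was 0.15 for uptake, -0.10 for canalicular export and -0.08 for basolateral efflux. The median deviation of the uptake genes from their wild-type means was 0.07, 0.17 and 0.12 on the transgenic arrays and 0.02, -0.09 and 0.04 on the wild-type arrays. For the canalicular genes it was -0.04, -0.17 and -0.11 against -0.03, 0.01 and -0.03. For basolateral efflux it was -0.16, -0.01 and 0.03 against 0.06, 0.04 and -0.05, so that the genotypes overlapped. The canalicular median was -0.020 without wild-type replicate 2, -0.06 without transgenic replicate 2 and -0.16 without wild-type replicate 1. The basolateral median was -0.04 without wild-type replicate 1 and -0.05 without either wild-type replicate 2 or transgenic replicate 1. The uptake median was 0.055 without probe sets that can match several transcripts, and the basolateral median was -0.020 where a gene's probe sets were averaged. By the mean level of a route's genes the pattern differed. Uptake overlapped, at 10.96 to 11.05 on transgenic and 10.98 to 11.09 on wild-type arrays. Canalicular export (10.32 to 10.41 against 10.49 to 10.55) and basolateral efflux (6.77 to 6.87 against 6.89 to 6.95) were lower on transgenic arrays. With 5 genes a route, these medians and means are descriptions and no difference between routes was tested.

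**Figure D3:**
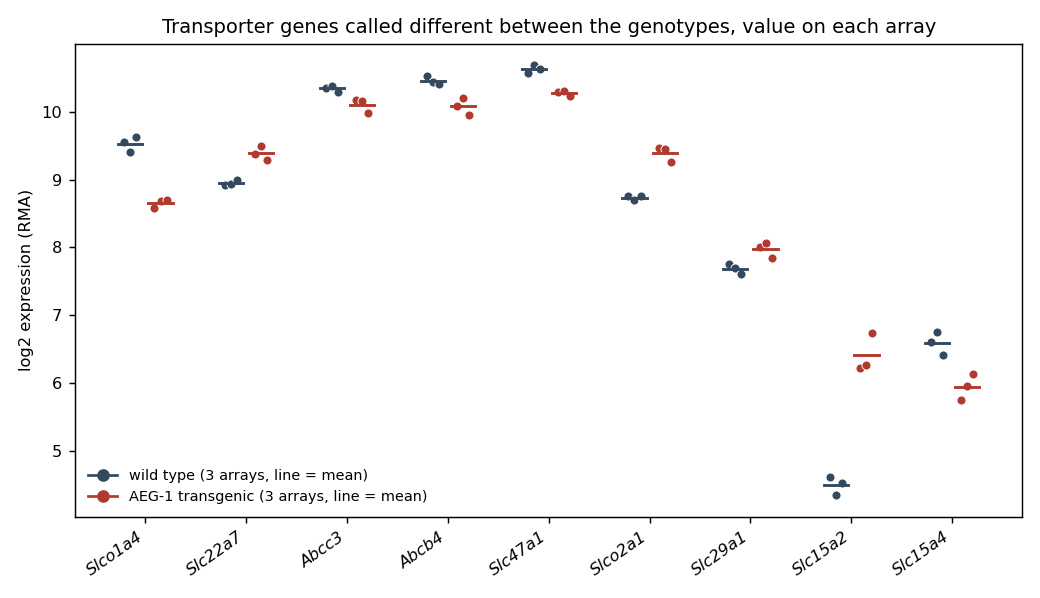
The plot gives log2 expression (vertical axis) of the 9 transporter genes that passed the threshold, with 1 point for each array and a line at the mean of 3 arrays. The red transgenic and dark wild-type points do not overlap for any of the 9 genes, and the widest separation is that of Slc15a2.

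Among the other organic anion transporting polypeptides, Slco2a1, the prostaglandin carrier PGT, rose 1.58-fold. Its values were 9.47, 9.45 and 9.26 on transgenic arrays and 8.75, 8.70 and 8.76 on wild-type arrays. The arrays did not overlap, and the difference was 0.66 (SE 0.07, limma adjusted p = 0.000642). The other 2 Slco2a1 probe sets gave 0.31 and 0.36, both past the threshold when all probe sets were tested. Slco2a1 is also known from endothelium, and 2 of 12 sinusoidal endothelium markers rose, Clec4g by 0.50 and Kdr by 0.41, while 0 fell. That share of 16.7% is near the 15.9% of all genes. Of the 12 markers 8 were at or above the array median. Among them were Clec4g (7.76 in transgenic, 7.26 in wild-type cells) and Kdr (6.78 and 6.37). Pecam1, a defining endothelial marker, was near background at 3.59 and 3.50. The part of other cells in the Slco2a1 difference was not tested. Slco3a1, a widely expressed carrier, was at 5.40, 5.11 and 5.26 against 4.74, 4.87 and 5.12, and its difference of 0.34 did not pass (limma adjusted p = 0.0765). Its 3 probe sets ran from -0.08 to 0.34, and the one at 0.30 passed when all probe sets were tested. Slco1c1, a thyroid hormone carrier known from brain vessels, gave 0.03 near background.

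None of the 5 other measured SLC22 genes passed limma's threshold (0 at an adjusted p under 0.05, and 1 at an unadjusted p under 0.05, Slc22a21). Slc22a18, an imprinted gene for an organic cation carrier-like protein, was the 1 member of this group above the array median. It read 9.71, 9.70 and 9.58 on transgenic and 9.91, 9.83 and 9.71 on wild-type arrays, a difference of -0.15 (limma adjusted p = 0.200). Slc22a21, a carnitine carrier gene, gave 0.31 (limma adjusted p = 0.114) and Slc22a8, the organic anion transporter Oat3 known from kidney, gave 0.24 (adjusted p = 0.271). Slc22a2, the kidney organic cation transporter Oct2, gave 0.05 and Slc22a4, an ergothioneine carrier, gave -0.13. These 4 had levels from 3.10 to 5.12, where signal is near background. Slc22a8 passed without transgenic replicate 3, at 0.39 (adjusted p = 0.0380).

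The nucleoside and peptide carriers held the largest difference of any member. Slc15a2, the proton-coupled peptide carrier PEPT2, rose 3.76-fold at its brightest probe set, while Slc15a4, a lysosomal histidine and peptide carrier, fell 1.56-fold and the intestinal carrier Slc15a1 (PEPT1) gave -0.07 near background. Slc15a2 was at 6.23, 6.26 and 6.73 on transgenic arrays and at 4.62, 4.35 and 4.53 on wild-type arrays. All transgenic values were higher, by 1.91 (SE 0.14, limma adjusted p = 8.99e-05). The wild-type values were under the array median of 5.63, near background, so the size of this fold is uncertain and describes this probe set. The other Slc15a2 probe set gave 0.17 (adjusted p = 0.260 over all probe sets), and the mean over both was 1.04. Slc15a4 was at 5.76, 5.96 and 6.13 against 6.61, 6.75 and 6.41, a difference of -0.64 (SE 0.12, limma adjusted p = 0.00799), with no overlap. The within-array gap between the 2 genes moved by 2.55 (two-sided exact permutation p = 0.1, the smallest possible, in a pair chosen after its values were seen), a value that rests on the same Slc15a2 probe set.

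Both genes are also known outside hepatocytes, Slc15a2 in epithelia and macrophages and Slc15a4 in immune cells. Beside them, 3 of 14 Kupffer cell and macrophage markers rose (Ptprc by 0.61, Marco by 0.69 and C1qc by 0.35) and 1, Cd163, fell by 0.31. That share was 28.6%, against 15.9% of all genes. Of the 14 markers 12 had a positive difference and 2 a negative one, against 6575 and 5818 over all genes. For 9 of the 14 the groups did not overlap, in either direction, against 34.5% of all genes. Of the 10 markers at or above the array median 1 passed, C1qc, where 23.6% of all genes at such levels did. Ptprc and Cd163 were under the median. Marco was under it by its mean over the arrays, with 5.90 in transgenic and 5.22 in wild-type cells. Of 11 cholangiocyte markers 1, Epcam, rose by 1.52, from 4.53 to 6.05, with a mean over the arrays under the array median. That share was 9.09%, against 15.9% of all genes. The 2 markers at or above the median were Sox9 (7.79 in transgenic, 7.81 in wild-type cells) and Slc4a2 (6.20 and 6.14). Krt7 was near background at 3.62 and 3.65, and so was Cftr at 3.20 and 3.15. Arrays give no value of 0, and the part of these cells in the 2 differences was not tested. Slc29a1, the equilibrative nucleoside carrier ENT1, rose 1.22-fold. It read 8.01, 8.06 and 7.84 on transgenic and 7.76, 7.70 and 7.60 on wild-type arrays, a difference of 0.28 (SE 0.08, limma adjusted p = 0.0399). The call was lost in 7 of 16 alternative settings, with adjusted p up to 0.126, and it passed in 1 of the 6 that leave out an array.

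**Figure D4:**
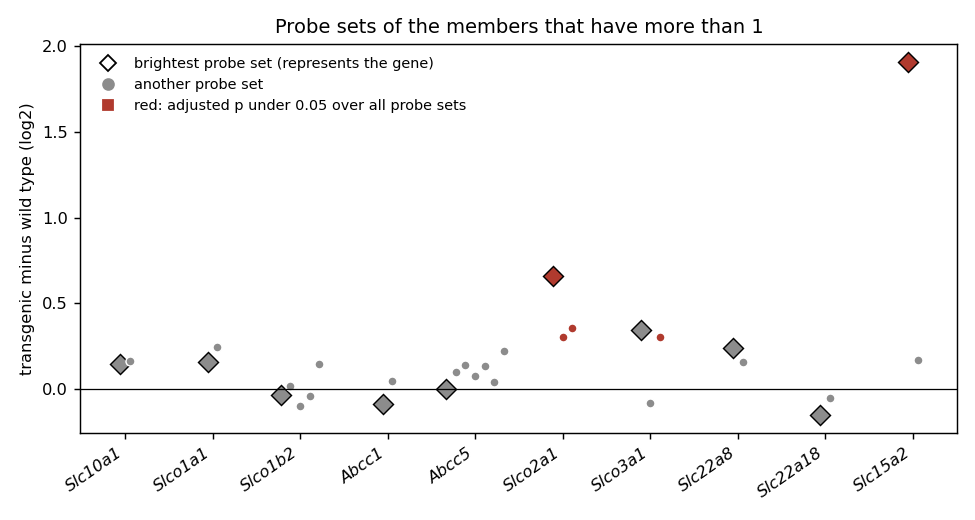
The plot gives the transgenic minus wild-type difference (log2, vertical axis) of every probe set of the 10 measured members that have more than 1, with a diamond for the brightest, which represents the gene. All 3 probe sets of Slco2a1 are red (past the threshold over all probe sets), while the other Slc15a2 probe set lies at 0.17 against 1.91 for the brightest.

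Slc10a2 and Abcc9 serve outside these routes. Slc10a2 is ASBT, which takes up bile acids in ileum and bile ducts, and it was above the array median in these cultures, at 8.21, 8.04 and 8.17 on transgenic and 8.00, 8.11 and 8.20 on wild-type arrays. The groups overlapped, with a difference of 0.04 (95% interval from -0.13 to 0.21). Abcc9, a potassium channel subunit, was near background and gave 0.01.

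Genes that are known to control these transporters were measured beside them. Of 18 measured regulators 6 fell and 2 rose, and 10 did not pass, with a median difference of -0.055. The bile acid receptor gene Nr1h4 (FXR) fell by 0.40 (SE 0.07, limma adjusted p = 0.00527), and the xenobiotic receptor gene Nr1i3 (CAR) fell by 0.36. Ppara, the fatty acid receptor, fell by 0.77, and Nr0b2 (SHP), a repressor that FXR is known to induce, rose by 0.87. Rxra fell by 0.38, Nr1i2 (PXR) by 0.41 and Cebpa by 0.25, while Ahr rose by 0.18, named after their values were seen. The hepatocyte factor Hnf4a was at 11.67 and 11.74 and did not pass (adjusted p = 0.459).

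Bile acid synthesis and conjugation genes went both ways, with 3 risen and 4 fallen of 18 and a median difference of 0.0050. The fallen included Cyp7a1, the rate-limiting step, by 1.05, and the sterol 12-hydroxylase gene Cyp8b1, by 0.48 (SE 0.07). Cyp7b1, the oxysterol 7-hydroxylase, rose by 0.50. The brain-type cholesterol 24-hydroxylase gene Cyp46a1 rose by 2.67, from 5.79 ± 0.34 to 8.45 ± 0.03. Its wild-type values lay near the array median, so the size of this fold is uncertain. Of 22 measured genes for apical membrane, trafficking and flippase partners 3 rose and 1 fell. Tmem30a, the partner subunit of phospholipid flippases, rose from 10.43 ± 0.05 to 10.71 ± 0.02, by 0.28 (limma adjusted p = 0.0103). Ezr, which links membrane proteins to actin, rose by 0.23, while the microvillus gene Vil1 fell by 0.37 near background. Vps33b, needed for apical sorting, rose by 0.43, from 5.29 to 5.72, with a mean over the arrays under the array median. Of 34 other measured liver transporters 3 rose and 7 fell, with a median difference of -0.0036. Among them the lipid transporter gene Abca3 rose by 0.90 (SE 0.06), the orphan carrier gene Slc22a23 fell by 0.57, the glucose carrier gene Slc2a2 fell by 0.41 and Abca8a, a lipid transporter gene, rose by 0.42. The share of genes that passed was 44.4% of the regulators, 38.9% of the synthesis genes, 18.2% of the apical partners and 29.4% of the other transporters, against 15.9% of all genes. Of the members of these lists at or above the array median, 8 of 17, 7 of 18, 2 of 19 and 9 of 21 passed, where 23.6% of all genes at such levels did, so the share of the apical partners was not above that of genes of like signal.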

How the data were processed

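Gene expression was measured on 6 Affymetrix mouse arrays, 3 per genotype. The authors deposited log2 expression values per probe set. They used Affymetrix Expression Console and RMA, per the submitters' processing notes, in versions not given in the sources used here. RMA equalises the distributions of arrays, so values show change relative to other genes and differences near background are compressed. Arrays have no read depth, and their number limits the precision.

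Of 22690 probe sets 64 were controls and left out. Probe sets with 1 platform gene symbol were kept, the brightest stood for its gene (12393 genes), and genotypes were compared with limma 3.58.1 (lmFit, eBayes, R 4.3.3, data.table package 1.17.8 for reading), two-sided, with Benjamini-Hochberg adjustment over all genes and a threshold of 0.05. The fit was tested on simulated data. Within-array gaps used exact permutation tests.

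All measured members are given, with values on every array for those past the threshold and for Slc10a1, Slco1b2, Abcb11, Abcb4, Abcc2 and Abcc3. Of each other list, up to 4 genes with the smallest p are named. Further genes were named after their values were seen. Members, lists, routes and tests were chosen with earlier results of these data known. Samples are labelled as biological replicates with no animal named, so p-values measure only the spread among them, which may be technical. Alternatives covered the choice of probe sets, dim genes, scaling, the variance model, a block for the replicate number, stricter thresholds and leaving out each array.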

Additional observations from a re-analysis of the deposited data

How the results depend on the processing

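The differences of the 9 called transporters kept their direction under all 19 alternative settings in which each could be fitted. Slco1a4, Slco2a1 and Slc47a1 passed in 17 of 17 settings other than the 2 stricter thresholds, and Slc22a7 and Slc15a2 in 16 of 16. Abcb4 and Slc15a4 missed the threshold in 1 setting, the model without moderation (adjusted p = 0.0754 and 0.0812). The number of risen transporters was 8 with a variance trend, where Slc10a1, Slco1a1, Slco3a1 and Abcb11 also passed, and 2 without probe sets that can match several transcripts, where Slc22a7 and Slc29a1 had no probe set. At an adjusted p under 0.01, 3 transporters had fallen, without moderation 2 had, and with at least 1.5-fold required 2 had risen and 2 had fallen. Without probe sets that can match several transcripts the median difference was 0.055 for uptake and -0.17 for canalicular export, and with averaged probe sets it was -0.020 for basolateral efflux. Leaving out each array in turn gave a canalicular median from -0.16 to -0.020.

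Over all genes, 1271 were called without moderation (560 higher, 711 lower), 918 at an adjusted p under 0.01 (392 and 526) and 358 with at least 1.5-fold (170 and 188), against 1967 (846 and 1121). Leaving out each array gave 1267 to 1700 calls, 540 to 739 higher and 727 to 961 lower. Median centring gave 789 higher and 1186 lower. No sign that the replicate numbers pair the samples was seen. The deviations of same-numbered arrays correlated at -0.01, -0.01 and 0.10, and 2 of 6 arrays correlated best with their own number. With so few arrays per genotype, these values cannot decide whether the numbers mark pairs. With the replicate block 1505 genes passed (640 higher and 865 lower), and of the transporters 8 did, without Abcc3. The causes of these shifts were not tested.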
